A study of Mus musculus with 2 samples.

Results

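The 9 myeloid lineage transcription factors Spi1, Cebpa, Cebpb, Cebpd, Cebpe, Gfi1, Irf8, Maf and Runx1 were followed through a mouse bone marrow macrophage culture, as 9 of the 31053 genes counted. They were chosen by symbol, and each symbol matched 1 gene with UMIs (unique molecular identifiers, tags that mark single RNA molecules) in both libraries. Marrow cells of wild-type 129Sv mice had been grown with 10% serum and with M-CSF, the growth factor that directs marrow cells to macrophages, at 50 ng/ml. On day 7 a culture received 1 µg/ml of a truncated Tamm-Horsfall protein that does not polymerize (THP, or uromodulin, a kidney protein) or the vehicle, 5% dextrose, and single cells were sequenced 18 h later. There was 1 library per group, and how many mice stood behind each one is not stated. Treatment, culture dish and library preparation therefore cannot be told apart, no p-value is given, and every interval below covers counting error only.

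These factors act in an order that is well described. Runx1 is needed for the emergence of blood stem cells and acts through myeloid differentiation, and PU.1, the ETS-family product of Spi1, opens the myeloid programme and is kept in monocytes, macrophages and neutrophils. C/EBPα, the product of Cebpa, drives the step from early progenitors to granulocyte and monocyte progenitors. From there Irf8 directs cells to monocytes and dendritic cells, while the repressor Gfi1 and C/EBPε, the product of Cebpe, direct them to neutrophils, with C/EBPε switching on the genes of secondary granules. C/EBPβ and C/EBPδ, the products of Cebpb and Cebpd, are kept in mature cells and are induced in inflammation. Maf encodes c-Maf, a factor of macrophages that represses their self-renewal.

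The 250 bases before the first annotated start are shown for 4 of the 5 members with a RefSeq promoter entry. They were taken from RefSeq (GRCm38.p6) and are written 5′ to 3′ along the gene. Capitals mark matches to the motifs searched on both strands: TTGCNNAA (C/EBP), GAGGAA (PU.1), TGTGGT (RUNX), an IRF and an NF-kB motif, and TGACG (the half-site of a cyclic AMP response element, CRE).
Cebpb, chr2:167688665-167688914, plus strand: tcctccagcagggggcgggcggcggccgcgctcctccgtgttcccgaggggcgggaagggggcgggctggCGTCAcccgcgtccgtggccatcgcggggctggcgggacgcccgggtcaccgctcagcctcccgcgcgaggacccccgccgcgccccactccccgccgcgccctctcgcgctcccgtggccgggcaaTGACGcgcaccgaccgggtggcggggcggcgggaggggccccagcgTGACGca
Cebpa, chr7:35119043-35119292, plus strand: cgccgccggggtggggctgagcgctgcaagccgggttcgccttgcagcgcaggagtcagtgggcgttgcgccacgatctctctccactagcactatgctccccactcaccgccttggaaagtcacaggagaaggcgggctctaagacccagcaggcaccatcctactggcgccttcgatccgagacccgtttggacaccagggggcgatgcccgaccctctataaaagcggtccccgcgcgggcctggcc
Gfi1, chr5:107725806-107726055, minus strand: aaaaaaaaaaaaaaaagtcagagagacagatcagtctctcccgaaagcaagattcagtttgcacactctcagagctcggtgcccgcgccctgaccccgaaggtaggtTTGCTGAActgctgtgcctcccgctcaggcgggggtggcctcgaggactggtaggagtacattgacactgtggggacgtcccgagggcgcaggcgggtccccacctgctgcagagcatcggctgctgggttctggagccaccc
Irf8, chr8:120736108-120736357, plus strand: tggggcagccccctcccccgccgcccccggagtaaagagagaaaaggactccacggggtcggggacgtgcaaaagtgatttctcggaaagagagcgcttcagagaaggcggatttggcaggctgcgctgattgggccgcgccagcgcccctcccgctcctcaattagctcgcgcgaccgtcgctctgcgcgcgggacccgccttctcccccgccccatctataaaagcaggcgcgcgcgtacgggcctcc
The Cebpb sequence held 3 CRE half-sites, 180, 53 and 7 bases before the start, the farthest of them on the opposite strand. At least 1 such half-site stood in 17.8% of the 32851 RefSeq promoter windows of this length. The Gfi1 sequence held 1 C/EBP match, TTGCTGAA, 143 bases before the start, a motif found in 9.56% of the windows. Neither the Cebpa nor the Irf8 sequence held a match, which says only that these letters are not in this window. The other motifs were found in 23.3% (PU.1), 14.05% (RUNX), 2.98% (IRF) and 0.980% (NF-kB) of the windows. RefSeq promoter entries were matched for 5 of the 9 members. Runx1, which is not shown, had a PU.1 match 46 bases before its second start. Gfi1 and Irf8 also had a second start, without a match and not shown. The first Gfi1 start lies 231 bases inside the gene as GENCODE draws it, while those of Cebpb, Cebpa and Irf8 coincide with the GENCODE gene starts.

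In GRCm38 coordinates (GENCODE M21), Cebpa (ENSMUSG00000034957, chromosome 7, 35119293 to 35121928), Cebpb (ENSMUSG00000056501, chromosome 2, 167688915 to 167690418) and Cebpd (ENSMUSG00000071637, chromosome 16, 15887286 to 15891031) are genes of 1 exon on the plus strand. Spi1 (ENSMUSG00000002111, chromosome 2, 91082390 to 91115756) and Irf8 (ENSMUSG00000041515, chromosome 8, 120736358 to 120756694) are also on the plus strand. Cebpe (ENSMUSG00000052435, chromosome 14, 54710360 to 54712174), Gfi1 (ENSMUSG00000029275, chromosome 5, 107716657 to 107726036), Maf (ENSMUSG00000055435, chromosome 8, 115682942 to 115707794) and Runx1 (ENSMUSG00000022952, chromosome 16, 92601466 to 92826149) are on the minus strand. All 9 encode proteins. Cebpb overlaps Tmem189 on the other strand, which was counted at 57.3 and 54.0 CPM in the THP and vehicle libraries, and Cebpd overlaps Spidr, counted at 18.9 and 28.3 CPM. Levels are given throughout in CPM, the UMIs of a gene summed over a group of cells and scaled to the same total (1e6 UMIs) in each. Whether the counting used strand is not stated, so reads of these overlapping pairs cannot be told apart with certainty.

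After a filter on genes, UMIs and mitochondrial share, 12123 THP and 10978 vehicle cells remained, at medians of 16113 and 17223 UMIs. The libraries shared 42 cell barcodes, and no doublets were removed. Each kept cell was placed in a progenitor, immature neutrophil, mature neutrophil, monocyte or macrophage gate from marker genes that do not include the 9 factors, and 71.4% of the cells fell inside a gate. Of 44 markers, 38 were highest in their own gate in both libraries; the exceptions included Cd34, Ly6g, Ly6c2, Fn1 and Plac8. The progenitor gate held 1112 THP and 1394 vehicle cells, the immature neutrophil gate 770 and 1037, the mature neutrophil gate 729 and 905, the monocyte gate 1119 and 1549, and the macrophage gate 4788 and 3098. The macrophage gate thus held 39.5% (38.6 to 40.4) of kept THP cells and 28.2% (27.4 to 29.1) of kept vehicle cells (Clopper-Pearson 95% intervals). Gates are cut from scores and are ranges: between 90 and 397 cells per gate and library lay within 0.05 of the lead that a gate required, and the median monocyte score inside the progenitor gate was 0.260 in THP and 0.266 in vehicle cells beside a progenitor score of 0.610 and 0.647. Depth differed widely between gates, from a median of 2128 (THP) and 1933 (vehicle) UMIs per mature neutrophil to 22147 and 24490.5 per macrophage. A level in CPM and a level per cell therefore answer different questions.

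The factors of the progenitor and neutrophil branch had steep profiles. Gfi1 was highest in the progenitor gate, with 41.0 CPM (95% Poisson interval 38.3 to 43.9) in THP cells and 58.7 CPM (56.0 to 61.6) in vehicle cells. It stood at 20.5 and 33.8 CPM in the immature neutrophil gate, 2.72 and 2.48 CPM in the mature neutrophil gate, 2.68 and 1.95 CPM in the monocyte gate and 0.241 and 0.468 CPM in the macrophage gate. Gfi1 was thus a progenitor transcript with a second, lower level in immature neutrophils, and 68.6% of its THP UMIs and 72.7% of its vehicle UMIs came from the progenitor gate.

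Cebpa was likewise highest in progenitors, at 68.4 CPM (64.8 to 72.1) in THP and 97.0 CPM (93.4 to 101) in vehicle cells. In the other gates it ranged from 9.08 CPM (immature neutrophils) to 16.4 CPM (monocytes) in the THP library and from 18.9 CPM (immature neutrophils) to 36.6 CPM (mature neutrophils) in the vehicle library. Stromal cells, picked out by collagen markers and counted here as a type in which a myeloid factor should be low, had 10.97 CPM (6.95 to 16.5) and 18.4 CPM (13.9 to 23.9) of Cebpa. With every cell thinned to 2000 UMIs, a Cebpa UMI was found in 12.3% and 16.8% of THP and vehicle progenitors, in 2.46% and 4.15% of macrophages and in 2.44% (0.297 to 8.53) and 8.45% (3.16 to 17.5) of stromal cells, whose unthinned medians were 20997 and 39385 UMIs. Shares of cells with Cebpa outside the progenitor gate were thus at or below the stromal share in vehicle cells and close to it in THP cells. Other cells outside the gates had different levels of Cebpa. Those with T or NK cell markers had 2.70 and 0 CPM (1 and 0 UMIs) and those with dendritic markers 5.34 and 8.35 CPM. B cells had 9.32 and 13.2 CPM, and mast cells or basophils 373 and 216 CPM. The stromal share therefore does not set a background level, and whether the lower levels are background was not tested. In CPM, vehicle monocytes (28.9; 27.0 to 30.9) and vehicle mature neutrophils (36.6; 28.8 to 46.0) stood above stromal cells, while THP macrophages (11.5) did not. Unthinned, the share with a Cebpa UMI was 58.2% and 72.2% of progenitors, 23.2% and 41.6% of macrophages and 24.4% and 47.2% of stromal cells.

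Cebpe peaked one stage later. It was at 149 CPM (143 to 154) in THP and 183 CPM (178 to 188) in vehicle progenitors, and at 527 CPM (507 to 547) and 708 CPM (689 to 727) in immature neutrophils. In mature neutrophils it was back at 52.2 CPM (42.3 to 63.7) and 86.6 CPM (74.3 to 100), in monocytes at 18.1 and 23.7 CPM, and in macrophages at 4.69 and 5.99 CPM, beside 4.29 and 3.29 CPM in stromal cells. Per cell, too, Cebpe was highest in immature neutrophils, with 3.54 and 5.21 UMIs per cell against 2.69 and 3.82 in progenitors, although the median immature neutrophil held 5890 and 6453 UMIs and the median progenitor 16086 and 19392.

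Irf8 and Maf marked the monocyte and macrophage branch. Irf8 had 110 and 109 CPM in THP and vehicle progenitors, 163 CPM (157 to 169) and 148 CPM (144 to 153) in monocytes, and 101 and 115 CPM in macrophages. In the immature neutrophil gate it was 11.2 and 14.1 CPM and in the mature neutrophil gate 20.7 and 17.8 CPM. Both neutrophil gates were below the 50.1 and 27.3 CPM of stromal cells. After thinning to 2000 UMIs an Irf8 UMI was found in 25.4% and 21.7% of monocytes and in 1.84% and 1.76% of immature neutrophils. The share was 8.54% and 7.04% of stromal cells. Whether the neutrophil values are background was not tested. Thinning left out 311 THP and 494 vehicle mature neutrophils and at most 41 cells of any other gate and library.

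Maf was at 359 CPM (356 to 362) in THP and 564 CPM (559 to 569) in vehicle macrophages, against 70.7 and 103 CPM in monocytes and 37.5 and 20.6 CPM in progenitors. The macrophage gate held 76.9% and 75.0% of all Maf UMIs. Neutrophil gates had between 22.4 and 46.5 CPM, with a Maf UMI in 2.15% to 4.78% of cells thinned to 2000 UMIs against 48.9% of THP and 61.7% of vehicle macrophages. Stromal cells had 157 and 195 CPM of Maf, above the monocyte gate in both libraries.

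C/EBPβ and C/EBPδ transcripts were found in every gate. Cebpb was at 484 and 286 CPM in THP and vehicle progenitors, 505 and 230 CPM in immature neutrophils, 1757 CPM (1697 to 1819) and 680 CPM (645 to 717) in mature neutrophils, 662 and 340 CPM in monocytes and 409 and 214 CPM in macrophages. Cebpd was at 265 and 203 CPM in progenitors, 368 and 372 CPM in immature neutrophils, 595 and 683 CPM in mature neutrophils, 329 and 167 CPM in monocytes and 263 and 78.1 CPM in macrophages. Mature neutrophils were the highest gate in CPM for both genes in both libraries. Per cell the order changed: Cebpb was highest in THP macrophages (10.6 UMIs per cell) and in vehicle monocytes (6.54), and Cebpd in THP macrophages (6.85) and vehicle progenitors (4.25).

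Spi1 varied least between gates, by 1.72-fold with THP and 1.83-fold with vehicle from the lowest to the highest. It ranged from 428 CPM in progenitors to 735 CPM in mature neutrophils in the THP library, and from 373 CPM in progenitors to 683 CPM in mature neutrophils in the vehicle library. A Spi1 UMI was present in 73.5% (vehicle mature neutrophils) to 99.2% (vehicle progenitors) of the cells of a gate. Stromal cells had 187 and 94.1 CPM of Spi1, below each of the 5 gates in both libraries. Runx1 ran from 17.9 CPM in mature neutrophils to 79.7 CPM in monocytes with THP, and from 35.6 to 125 CPM in the same gates with vehicle, with macrophages next at 71.2 and 106 CPM. The Runx1 level of stromal cells, 107 CPM (93.3 to 122) and 117 CPM (105 to 129), was above all 5 gates with THP and between macrophages and monocytes with vehicle.

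**Figure D1:**
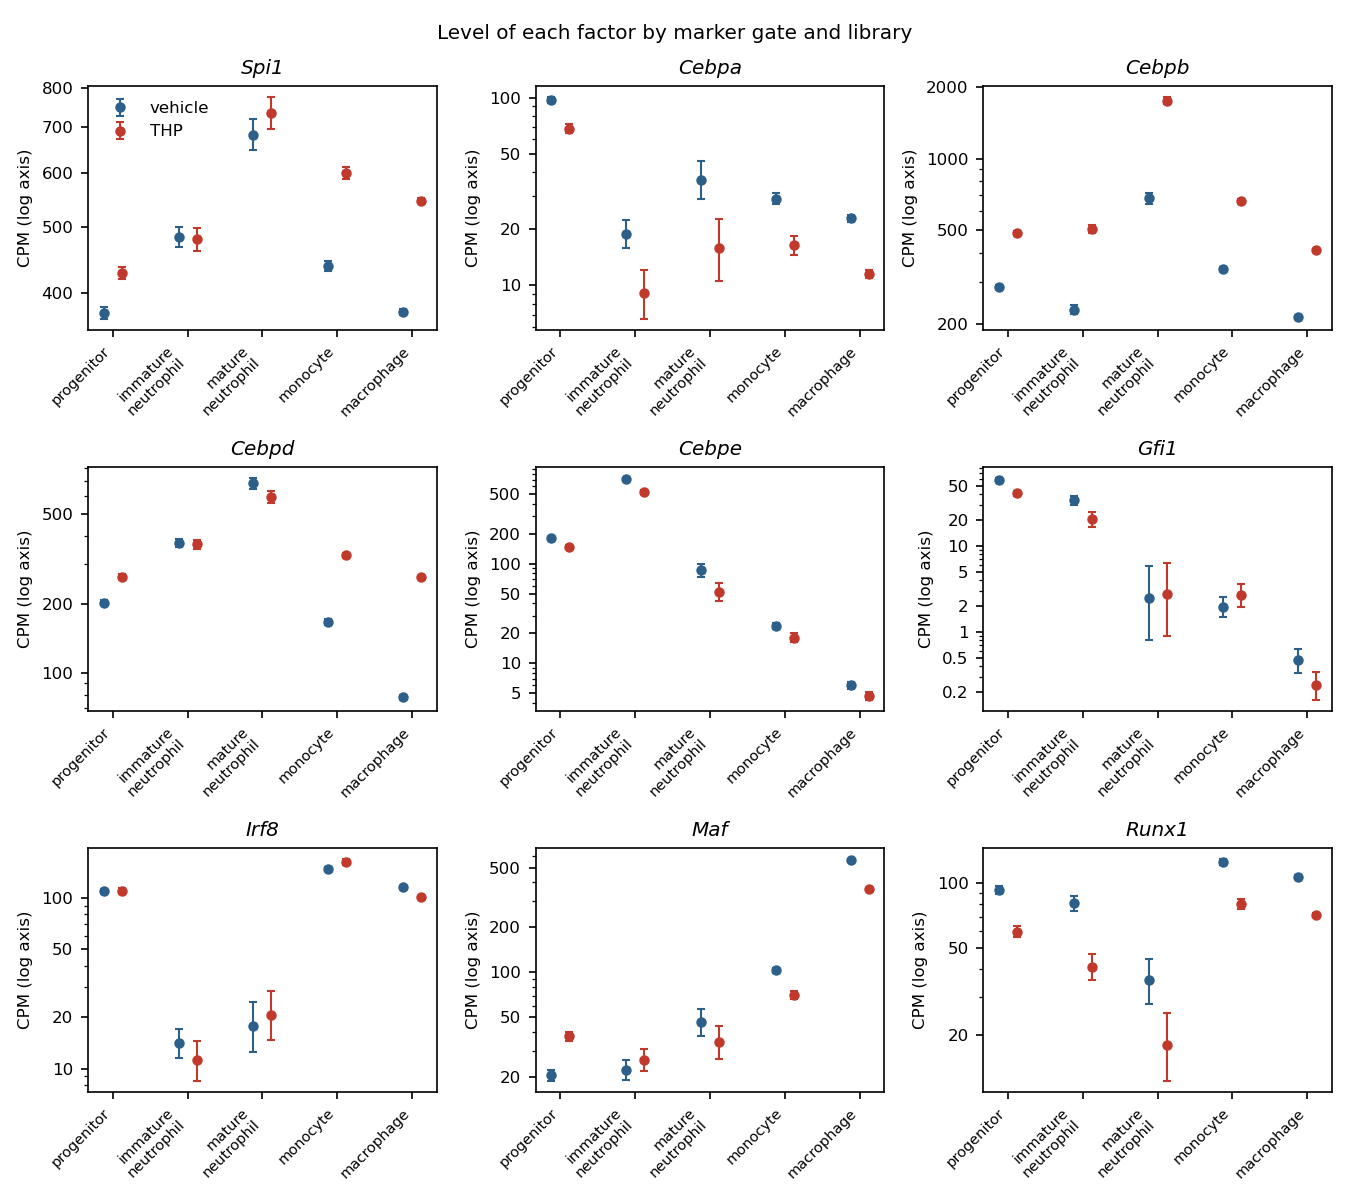
Level of each factor in CPM (log axis) by marker gate, with THP cells in red and vehicle cells in blue; bars are exact Poisson 95% intervals and cover counting error only. Gfi1 and Cebpa are highest in progenitors, Cebpe in immature neutrophils, Irf8 and Runx1 in monocytes, Maf in macrophages, and Spi1, Cebpb and Cebpd in mature neutrophils, in both libraries.

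The gate with the highest CPM was the same in both libraries for 9 of 9 factors. By UMIs per cell it was the same for 7 of 9, the others being Cebpb and Cebpd. The share of all genes for which this gate agreed was not computed, so these counts do not set the factors apart. The highest gate itself differed between the scales for some factors. Spi1, highest in mature neutrophils in CPM, was lowest there per cell, with 1.86 and 1.52 UMIs against 14.2 and 10.3 UMIs per macrophage. Irf8 and Runx1, highest in monocytes in CPM, were highest in macrophages per cell, Irf8 at 2.62 and 3.17 UMIs against 2.49 and 2.85 per monocyte and Runx1 at 1.85 and 2.93 UMIs against 1.22 and 2.39. Cebpa and Gfi1 (progenitors), Cebpe (immature neutrophils) and Maf (macrophages) had the same highest gate on both scales. Neighbours in these orders were not always apart. For Spi1 with THP, monocytes (600 CPM) exceeded macrophages (546 CPM) by more than the counting error, whereas with vehicle progenitors (373 CPM; 366 to 380) and macrophages (375 CPM; 371 to 379) did not differ beyond it. For Irf8 with vehicle, progenitors (109 CPM; 106 to 113) and macrophages (115 CPM; 113 to 117) had overlapping intervals. The spread between cultures is not known, and these orders describe 2 cultures.

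Steps along the lineages were then compared, a member being called when it had at least 10 CPM in 1 of the 2 gates and differed at least 2-fold (ratio of CPM + 1) in the same direction in both libraries. From progenitors to monocytes 3 of 9 members were lower, Cebpa, Cebpe and Gfi1, and 0 were higher, where 3.41% of all 7573 genes tested were called lower and 5.18% higher. Gfi1 was 11.4-fold lower in THP and 20.3-fold lower in vehicle monocytes, Cebpe 7.82-fold and 7.42-fold lower, and Cebpa 3.99-fold and 3.28-fold lower. Maf was called higher in the vehicle library alone (4.81-fold, against 1.86-fold with THP). Without cluster 12, a deep progenitor cluster with macrophage markers described below, Maf was called higher in both, by 7.83-fold and 11.5-fold, and it was then also called higher from immature to mature neutrophils, by 4.13-fold and 5.89-fold. From monocytes to macrophages 1 member was higher, Maf, by 5.02-fold and 5.44-fold, and 1 was lower, Cebpe, by 3.36-fold and 3.54-fold, with 6.5% of genes called higher and 3.37% lower.

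On the neutrophil side, 1 of 9 members was higher and 2 were lower from progenitors to immature neutrophils, where 5.15% of genes were called higher and 22.3% lower. Cebpe was 3.53-fold higher in THP and 3.86-fold higher in vehicle cells. Cebpa was 6.88-fold and 4.94-fold lower and Irf8 9.10-fold and 7.28-fold lower. From immature to mature neutrophils Cebpb was higher, by 3.48-fold and 2.95-fold, and Cebpe (9.93-fold and 8.09-fold), Gfi1 (5.78-fold and 10.0-fold) and Runx1 (2.23-fold and 2.23-fold) were lower, against 7.58% of genes called higher and 17.2% lower. The fall in depth along this branch bears on these calls. In UMIs per cell, Cebpe was 0.40 (THP) and 0.45 (vehicle) log2 units higher in immature neutrophils than in progenitors and Cebpb 0.39 log2 units higher and 0.16 lower in mature than in immature neutrophils, so neither passed 2-fold. On that scale 7 of 9 members were at least 2-fold lower in immature neutrophils than in progenitors, Spi1, Cebpb, Gfi1, Maf and Runx1 beside Cebpa and Irf8. A lower level per cell thus singles out no factor at this step. The share of all genes lower on that scale was not computed.

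Cells with a score of at least 0.2 for either class of a step, and no higher score for another class, were then ordered. The order was the difference of the 2 scores, in 5 bins from the starting to the ending class. The middle bin lay between the 2 gates, while the other bins included gated cells and are not a separate set. From progenitor to monocyte, Irf8 went through a peak: in THP cells it was 51.3, 157, 221, 155 and 159 CPM in bins 1 to 5, and in vehicle cells 57.5, 175, 223, 142 and 146 CPM. The middle bin, of cells with almost equal progenitor and monocyte scores, had the highest level in both libraries, with intervals (210 to 233 and 214 to 233) that lay above those of the neighbouring bins. Cebpa declined from 84.2 to 14.5 CPM with THP and from 115 to 27.1 CPM with vehicle over the same bins. Gfi1 was at 62.5, 20.0, 9.90, 2.93 and 1.66 CPM in THP cells and at 80.3, 26.8, 9.67, 2.52 and 0.833 CPM in vehicle cells, so most of its decline lay between the first bins.

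From progenitor to immature neutrophil Cebpe was 112, 239, 452, 446 and 502 CPM in THP cells and 138, 382, 649, 630 and 677 CPM in vehicle cells, already near its final level in the middle bin. Irf8 went the opposite way, from 135 to 9.35 CPM with THP and from 135 to 12.9 CPM with vehicle. Gfi1 stayed between 14.5 and 37.9 CPM in THP cells and between 23.9 and 52.1 CPM in vehicle cells, without the sharp decline seen towards monocytes. Cebpa, at 68.6 CPM with THP and 97.0 CPM with vehicle in the starting bin, had declined to 27.2 and 34.9 CPM in the next.

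**Figure D2:**
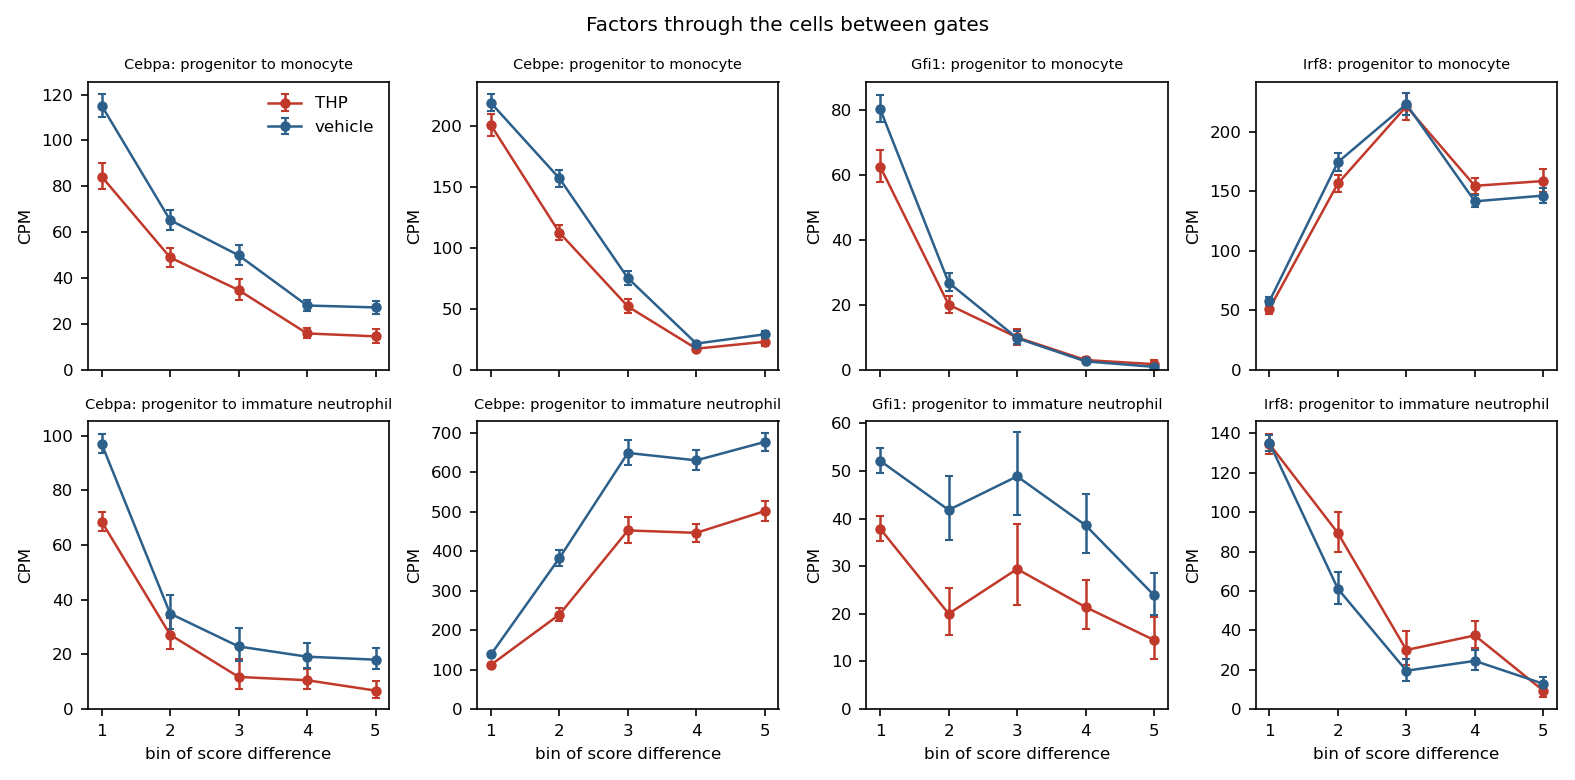
CPM of Cebpa, Cebpe, Gfi1 and Irf8 in 5 bins of cells ordered by the difference of 2 marker scores, from progenitor to monocyte (top row) and from progenitor to immature neutrophil (bottom row), with THP in red, vehicle in blue and exact Poisson 95% intervals. Irf8 peaks in the middle bin towards monocytes and declines towards neutrophils, where Cebpe climbs.

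Within the progenitor gate, Irf8 was counted less often in cells with a Cebpe UMI. The gate is mixed: 61.5% of its THP and 74.4% of its vehicle cells lay in progenitor cluster 3, while 24.9% and 6.53% lay in immature neutrophil cluster 5 and 11.6% of the vehicle cells in immature neutrophil cluster 14. In those cells Irf8 was low and Cebpe high, at 23.6 and 368 CPM in the THP cells of cluster 5. With each cell thinned to 5000 UMIs (1090 THP and 1378 vehicle cells), an Irf8 UMI was found in 11.4% (8.77 to 14.5) of THP and 14.4% (11.8 to 17.3) of vehicle cells with a Cebpe UMI. Among cells without a Cebpe UMI the share was 40.9% (37.0 to 45.03) and 37.9% (34.3 to 41.6). The intervals did not overlap in either library. Within cluster 3 alone (674 and 1031 cells) the shares were 14.2% (9.95 to 19.3) and 17.8% (14.3 to 21.8) with a Cebpe UMI against 44.9% (40.2 to 49.7) and 39.7% (35.7 to 43.7) without, so the split was also present without the immature neutrophil clusters. In the monocyte gate, treated the same way (1067 and 1503 cells), the shares were 45.5% (35.4 to 55.8) and 48.1% (40.7 to 55.6) with a Cebpe UMI and 44.0% (40.9 to 47.2) and 43.0% (40.3 to 45.8) without, so the split was not seen there.

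Split by Gfi1, an Irf8 UMI was found in 16.7% (11.6 to 22.8) of THP and 14.9% (11.3 to 19.1) of vehicle cells with a Gfi1 UMI and in 29.6% (26.7 to 32.7) and 30.2% (27.5 to 33.1) of those without. Within cluster 3 these shares were 19.0% and 16.8% against 37.6% and 35.4%. In the monocyte gate the order was the opposite, with an Irf8 UMI in 78.6% (49.2 to 95.3) and 75.0% (42.8 to 94.5) of cells with a Gfi1 UMI against 43.7% (40.7 to 46.7) and 43.4% (40.9 to 46.0) without, but only 14 THP and 12 vehicle monocytes had a Gfi1 UMI. Gfi1 and Cebpe went together: a Gfi1 UMI was present in 24.4% and 31.2% of cells with a Cebpe UMI and in 10.8% and 18.9% of cells without. The pair of Spi1 and Cebpa showed no such split, with a Spi1 UMI in 83.9% and 84.3% of cells with Cebpa and in 87.7% and 82.0% of those without. A missing UMI is not a missing transcript, and the cells of a library share 1 culture.

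**Figure D3:**
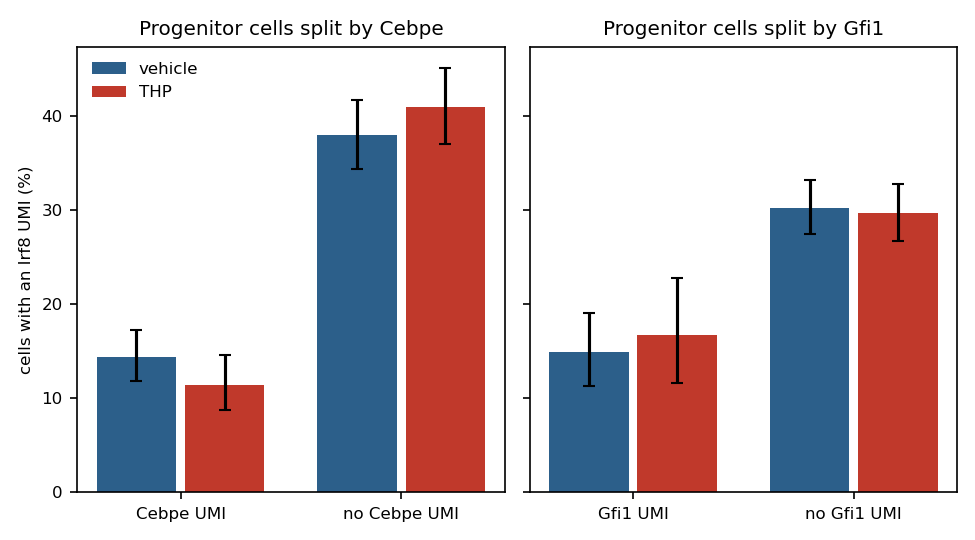
Share of progenitor-gate cells with an Irf8 UMI (%, axis from 0) among cells with and without a Cebpe UMI (left) or a Gfi1 UMI (right), after thinning to 5000 UMIs per cell; bars are the THP (red) and vehicle (blue) libraries with Clopper-Pearson 95% intervals. In both libraries the share is lower among cells with a UMI of the neutrophil factor, 11.4% and 14.4% for Cebpe against 40.9% and 37.9% without.

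THP and vehicle cells were compared over all kept cells and then within each gate, the only treatment contrast of the design. Summed over all cells, Cebpd stood at 282 CPM with THP and 142 CPM with vehicle (log2 ratio of CPM + 1, THP over vehicle, 0.99), Cebpb at 466 and 258 CPM (0.85) and Spi1 at 546 and 396 CPM (0.46). Cebpa was lower with THP, 18.3 against 35.3 CPM (-0.91), as were Gfi1 (5.36 and 11.4 CPM, -0.96), Cebpe (38.8 and 74.9 CPM, -0.93) and Runx1 (67.6 and 106 CPM, -0.64). Irf8 was at 104 and 114 CPM (-0.13) and Maf at 259 and 309 CPM (-0.26), and both ratios were positive after TMM scaling (0.16 and 0.03). None of the 9 members (0 higher, 0 lower) reached 2-fold, as 0.911% of the 8012 genes tested did upward and 2.97% downward. The median ratio was -0.26 for the members and -0.18 for all genes tested. With each gate given the same weight in both libraries, the ratios of Cebpe and Gfi1 were -0.46 and -0.47, closer to 0 than before, whereas those of Cebpb (0.93), Cebpd (1.10) and Runx1 (-0.64) were not.

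Cebpb was higher with THP by 1.69-fold in progenitors, 2.19-fold in immature neutrophils, 2.58-fold in mature neutrophils, 1.94-fold in monocytes and 1.91-fold in macrophages, from the levels given above. Within each gate this placed it between the 98.28 and the 98.98 percentile of the ratios of all genes tested. In the immature and mature neutrophil gates it passed 2-fold. Both calls varied with how cells were assigned. With clusters in place of gates the log2 ratios were 0.99 and 0.73, below the limit. The former pools clusters 5 and 14, both named immature neutrophil, and cluster 14 held 16 THP and 652 vehicle cells. In cluster 5 alone (1251 and 1356 cells) Cebpb was at 573 against 239 CPM, a log2 ratio of 1.26 and past the limit. Without cluster 14 the ratio in the immature neutrophil gate was 1.499. After correction for transcript length the ratio in that gate was 0.86.

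The clusters show the same direction at finer grain. Of 16 clusters, computed without the 9 factors, 14 had at least 50 cells in each library, and Cebpb was higher with THP in 14 of 14 (log2 ratios 0.51 to 1.26), a run that 6.37% of the 5432 genes measured in all 14 shared. Cluster 3, counted here as progenitor, was also led by the mast cell and basophil genes Prss34, Mcpt8 and Cpa3. The 14 included clusters named from stromal, B cell and T or NK cell markers, where Cebpb was at 365 against 189 CPM, 252 against 177 CPM and 229 against 132 CPM. Whether RNA from lysed cells, present in all droplets, added to those values was not tested.

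Cebpd differed by gate. In macrophages it was 3.34-fold higher with THP (263 against 78.1 CPM, log2 ratio 1.74, counting interval 1.72 to 1.79), at the 99.7 percentile of genes tested there, and in monocytes 1.96-fold higher. In progenitors it was 1.30-fold higher. In immature and mature neutrophils the log2 ratios were -0.02 and -0.20, with the sign of both positive after TMM scaling (0.20 and 0.19). By cluster it was higher with THP in 12 of 14, and the exceptions were clusters 0 and 5, named mature and immature neutrophil. How many of all genes were higher in 12 of 14 was not computed. Macrophage-gate cells were spread differently over clusters. Cluster 1 held 66.2% of the THP cells, and clusters 2, 6 and 8 held 39.1%, 30.1% and 23.1% of the vehicle cells, with 12.7% and 16.3% of the THP cells in clusters 6 and 8. Clusters 1 and 2 were led by Ccl7, Cxcl1 and Ccl4 and by Dab2, Plau and Itga6. Cebpd was higher with THP within each of the 4, at 298 against 97.0 CPM in cluster 1, 151 against 87.3 CPM in cluster 2, 139 against 86.5 CPM in cluster 6 and 274 against 77.1 CPM in cluster 8. In non-myeloid clusters the log2 ratio was 1.74 in stromal cluster 13 (223 against 66.2 CPM), 1.45 in the T or NK cell cluster and 1.25 in the B cell cluster. The part of RNA from lysed cells in these values was not tested either.

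Spi1 was moderately higher with THP in the monocyte (600 against 438 CPM) and macrophage (546 against 375 CPM) gates, log2 ratios of 0.45 and 0.54. In progenitors the log2 ratio was 0.20. In the neutrophil gates it was -0.01 and 0.11, and both signs turned with a setting, the former with TMM scaling (0.20) and the latter with correction for transcript length (-0.11).

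Cebpa was lower with THP in all gates, with log2 ratios of -0.50 in progenitors, -0.98 in immature neutrophils, -1.17 in mature neutrophils, -0.78 in monocytes and -0.93 in macrophages. Among the genes tested in each gate, Cebpa ranked between the 3.16 percentile (macrophages) and the 22.6 percentile (progenitors). Only in mature neutrophils did it pass 2-fold, from 29 UMIs in THP and 74 in vehicle cells, and after TMM scaling the ratio there was -0.80. In the progenitor gate, where it is well above the stromal level, 68.4 against 97.0 CPM is a 1.41-fold difference. By cluster it was lower in 14 of 14 (-1.38 to -0.13), as were 21.7% of genes measured in all of them. Stromal-marker cluster 13, with 10.4 against 18.4 CPM, was among these.

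Runx1 was lower with THP in all 5 gates, by 1.54-fold in progenitors (59.7 against 92.6 CPM), 1.94-fold in both neutrophil gates, 1.56-fold in monocytes and 1.48-fold in macrophages. Among the genes tested in each gate, Runx1 ranked between the 6.46 percentile (immature neutrophils) and the 20.0 percentile (mature neutrophils). By cluster it was lower in 13 of 14, the exception being macrophage cluster 2 at 96.7 against 93.4 CPM. The share of all genes with such a count was not computed. Maf was lower with THP in macrophages (359 against 564 CPM, log2 ratio -0.65, 11.7 percentile of genes tested) and monocytes (-0.54, 21.6 percentile). It was lower in 13 of the 13 clusters in which it reached 10 CPM. Of genes measured in all 14 clusters, 21.7% were lower in every one, and the share over these 13 was not computed. After correction for the trend of the ratios with transcript length, the Maf ratios in macrophages and monocytes were -0.36 and -0.22. The genes behind Maf and Runx1 have long transcripts, 6360 and 5861 bases, and the corrected Runx1 ratios ran from -0.65 to -0.31 over the 5 gates.

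In the progenitor gate Maf was higher with THP, at 37.5 against 20.6 CPM (log2 ratio 0.84). These counts came largely from cluster 12, a progenitor cluster with a median of 28616 UMIs per cell, which supplied 11.4% of the THP and 4.30% of the vehicle progenitors. There Maf was at 149 and 158 CPM, and 11 of the 12 macrophage markers were at least 2-fold higher than in the other progenitors in both libraries, Cd63 being the exception. The summed macrophage markers were 1448 and 1691 CPM in its cells and 568 and 617 CPM in the others. The median depth of its gated cells was 29941 and 38327 UMIs against 15234 and 18996.5 in the others, and whether droplets with more than 1 cell had a part in the result was not tested. Without cluster 12, Maf was at 8.20 and 8.04 CPM in the progenitor gate, a log2 ratio of 0.02.

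Irf8 differed little between the libraries, with log2 ratios of 0.01 in progenitors, 0.13 in monocytes (163 against 148 CPM) and -0.19 in macrophages (101 against 115 CPM; 0.04 after TMM scaling), and it was higher with THP in 7 and lower in 7 of 14 clusters. Cebpe was lower with THP in progenitors (-0.30) and immature neutrophils (-0.42) and Gfi1 was lower in the same gates (-0.51 and -0.70). A cluster of immature neutrophils, cluster 14, had Cebpe among its leading genes and held 16 THP and 652 vehicle cells, among them 162 of the 1394 vehicle progenitors and 306 of the 1037 vehicle immature neutrophils. In turn, 277 THP and 91 vehicle progenitor-gate cells lay in immature neutrophil cluster 5, so the cells compared fell in different clusters in each library. Within progenitor cluster 3 alone the progenitor-gate ratios were -0.39 for Cebpe and -0.37 for Gfi1. Without cluster 14 the Cebpe ratios in the gates were -0.06 and -0.33 and those of Gfi1 -0.47 and -0.29. In mature neutrophils Cebpe was at 52.2 against 86.6 CPM by gate (-0.72) but at 103 against 45.3 CPM in cluster 0, which took in 104 THP and 2 vehicle cells of the immature gate.

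Counted by the 2-fold rule, 0 of 9 members were called in progenitors, where 1.16% of genes were called higher and 2.19% lower, and 1 higher in immature neutrophils (Cebpb; 1.7% and 5.08%). In mature neutrophils 1 was higher and 1 lower (Cebpb and Cebpa), among 3.25% and 18.3% of genes. In monocytes 0 were called (0.914% and 2.87%), and in macrophages 1 was higher (Cebpd; 0.94% and 2.16%). The median ratio of the members tested was 0.01 in progenitors, -0.31 in immature and in mature neutrophils, -0.12 in monocytes and -0.19 in macrophages, beside -0.18, -0.22, -0.40, -0.18 and -0.16 for all genes tested in those gates. The shift set by the TMM factors ran from 0.18 (progenitors) to 0.39 (mature neutrophils) on the log2 scale, so small ratios of either sign should be read against it.

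**Figure D4:**
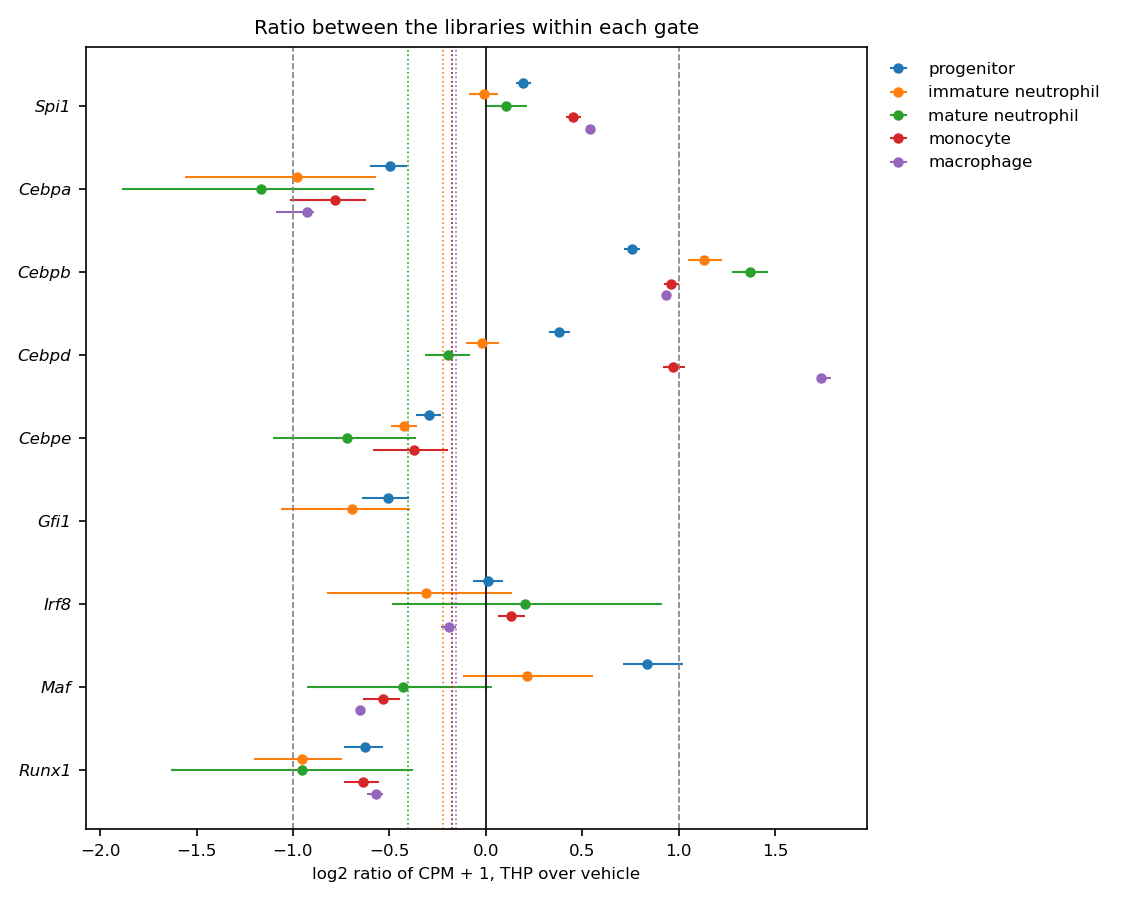
Log2 ratio of CPM + 1, THP over vehicle, for each factor within each gate (colours), shown where the factor reached 10 CPM in at least 1 library; horizontal bars are counting intervals of the ratio. Dashed lines mark 2-fold, and a dotted line in each colour marks the median of all genes tested in that gate. Cebpb lies right of 0 in all 5 gates and Cebpa and Runx1 left of it, while Cebpd runs from -0.20 in mature neutrophils to 1.74 in macrophages.

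**Figure D5:**
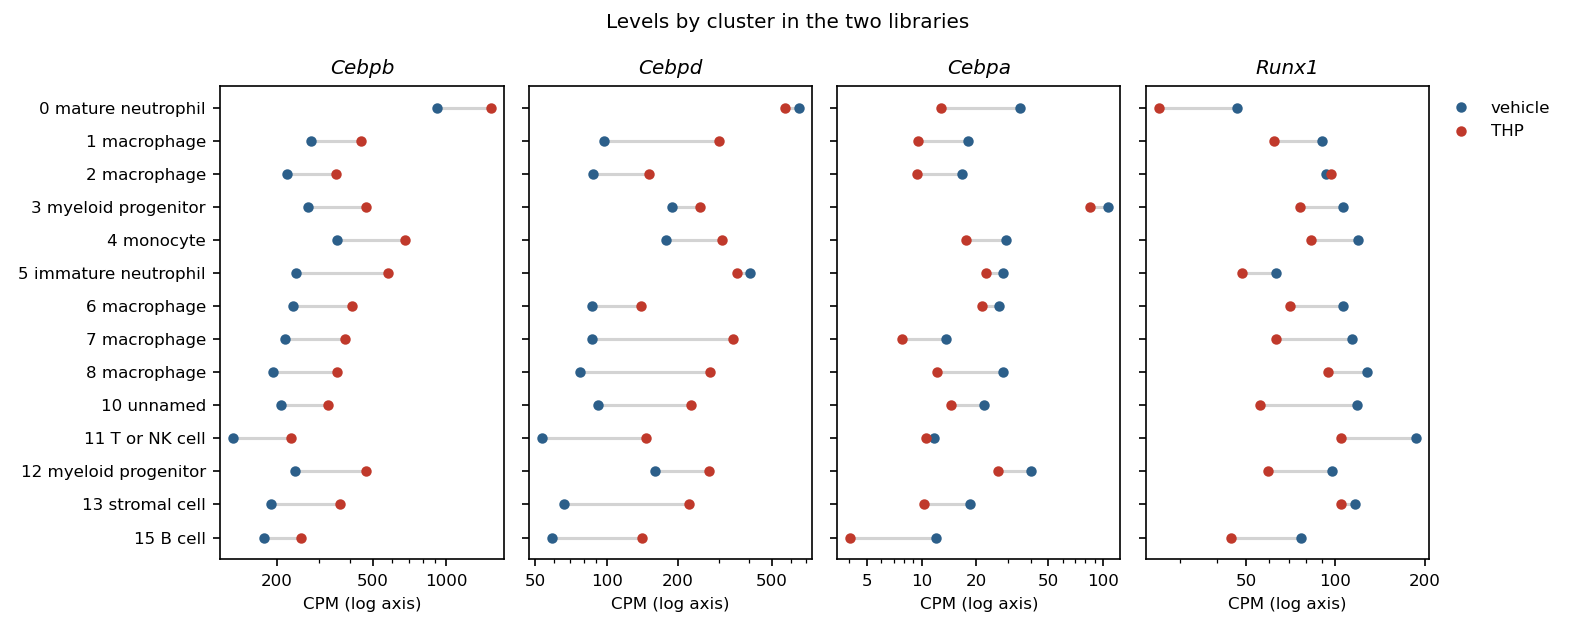
CPM (log axis) of Cebpb, Cebpd, Cebpa and Runx1 in the 14 clusters with at least 50 cells in each library, THP in red and vehicle in blue, joined by a grey line. Cebpb is higher with THP in every cluster shown, Cebpd in all but the neutrophil clusters 0 and 5, and Cebpa is lower in every one.

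Relatives and partners of the 9 factors formed a list of 21 genes, of which 14 reached 10 CPM over all cells. With THP 1 was higher and 1 lower, beside 0.911% and 2.97% of all genes tested, and their median ratio was -0.24 beside -0.18. The higher gene was Spic, an ETS factor of iron-recycling macrophages (11.6 against 4.82 CPM, log2 ratio 1.12). The lower gene was Runx2, a Runx1 paralog (4.63 against 14.7 CPM, -1.48), which was also called lower in immature neutrophils (7.15 against 21.5 CPM), mature neutrophils (11.96 against 41.1 CPM) and monocytes (8.86 against 21.5 CPM). Runx3 (12.8 against 23.4 CPM, -0.83) lay on the same side without reaching 2-fold, and Cbfb, the shared partner of the Runx proteins, was at 67.2 and 77.1 CPM (-0.20).

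Mafg, a small Maf protein gene, was at 94.6 and 92.8 CPM (0.03). Irf2 was at 87.6 against 124 CPM (-0.49). Within gates, Irf7 was called higher in progenitors (14.4 against 4.59 CPM, 1.46) and Ddit3 lower in mature neutrophils (70.1 against 153 CPM, -1.12). Both, and the neutrophil genes Id3, Nr4a1 and Tfec below, are named because they were called, after their values were seen.

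Among 31 other regulators of myeloid cells, 22 reached 10 CPM over all cells, with 2 higher, 1 lower and a median ratio of -0.24, beside the same shares and median of all genes. Ets2, an ETS factor downstream of growth factor and inflammatory signals, was at 107 against 40.4 CPM (1.39), and was also called higher in immature neutrophils (1.02), mature neutrophils (1.74) and macrophages (1.26). Nr1h3, which encodes the oxysterol receptor LXRα, was at 26.4 against 12.4 CPM (1.03), but at 41.4 against 27.1 CPM (0.59) within macrophages. Myb, a factor of proliferating progenitors, was at 21.6 against 59.8 CPM (-1.43) and was called lower in immature neutrophils (-1.02).

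Klf4, a monocyte factor, was at 17.9 against 27.9 CPM (-0.61), Zeb2 at 390 against 449 CPM (-0.20), Lmo2 at 101 against 123 CPM (-0.29), Elf1 at 73.1 against 112 CPM (-0.61) and Id2 at 118 against 105 CPM (0.17). In mature neutrophils 4 of 19 tested genes of this list were called higher, beside 3.25% of all genes, Ets2 and in addition Id3 (16.8 against 3.46 CPM), Nr4a1 (19.0 against 6.43 CPM) and Tfec (11.4 against 4.46 CPM). In progenitors 0 of the 16 tested genes of this list were called, and in monocytes 0 of 17. Of all genes tested, 1.16% were called higher and 2.19% lower in progenitors, and 0.914% and 2.87% in monocytes.

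The genes whose profiles were most like each factor were taken over 29 sums of cells (1 per cluster and library with at least 50 cells) as Pearson's r of log2(CPM + 1) among 10821 genes. These sums share libraries and depth, so r is a description. Maf was nearest to Cdk14 (r = 0.97), Dab2 (0.97) and Lrp1 (0.96), Gfi1 to 1700020L24Rik (0.98), Prss57 (0.97) and Mgst2 (0.96), and Cebpe to Serpinb1a (0.97), Fcnb (0.96) and Cldn15 (0.96). Prss57 and Fcnb were also markers of the progenitor and immature neutrophil gates. Spi1 was nearest to Arpc3 (0.93), Snapc5 (0.90) and Tyrobp (0.88), and Runx1 to Xpo7 (0.94), Cul1 (0.92) and Ylpm1 (0.91). Hcar2 stood among the 3 nearest genes of both Cebpb (0.87) and Cebpd (0.88); the others were Bbip1 (0.91) and Fas (0.89) for Cebpb and Irak3 (0.88) and Lmo4 (0.88) for Cebpd. Likeness was weaker for Irf8, with Them6 (0.90), Pdcd2l (0.87) and Abcb8 (0.86), and for Cebpa, with Ifngr1 (0.84), Atg12 (0.82) and B3gnt8 (0.81). Between members, r was highest for Cebpe and Gfi1 (0.91) and for Cebpb and Cebpd (0.84), and lowest for Cebpe and Maf (-0.79).

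A few cells outside the 5 gates gave reference levels. In cells with dendritic markers (40 THP and 46 vehicle), Irf8 was at 1376 CPM (1214 to 1555) and 1394 CPM (1248 to 1552), above its 163 and 148 CPM in monocytes. Gfi1 had 0 UMIs in stromal cells, which allows up to 1.43 and 0.987 CPM (3 UMIs). In cells with mast cell or basophil markers (60 and 57), Cebpa was at 373 and 216 CPM and Runx1 at 268 and 268 CPM, each above its highest level in any of the 5 gates.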

How the data were processed

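The 2 samples are droplet single-cell RNA libraries of poly(A) RNA, 1 per treatment. The deposited matrices hold UMI counts per gene and cell barcode, and per the file headers were written by software version 3.1.0 in matrix format 2. Per the submitters' processing notes, bcl2fastq, Cell Ranger, STAR and genome build mm10 were used; whether intronic reads and strand were used was not recorded in these notes or headers. The totals were 227129670 UMIs in 13193 barcodes (THP) and 209092047 in 11584 (vehicle).

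Cells with at least 500 genes, at least 1000 UMIs and at most 10% mitochondrial UMIs were kept. For each class of markers, log depth-scaled counts were set relative to the 99th percentile over kept cells and averaged. A cell entered the gate of its top class at a score of at least 0.2 and a lead of at least 0.1. Of the kept cells, 777 with at least 10 UMIs, at a fixed cell total of 1e4, from markers of another cell type (dendritic, mast or basophil, eosinophil, stromal, B, T or NK, erythroid) were left out of the gates and formed the reference types. Gate thresholds were set after the files were seen, on marker values alone. Clusters came from Leiden clustering at resolution 0.5 (2000 variable genes without the 9 factors, 30 components, 15 neighbours), and were named from the same markers. No doublet caller was run.

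UMIs were summed per gate and library, with exact Poisson intervals, and shares of cells have Clopper-Pearson intervals, both at 95%. Ratios use CPM + 1; a gene was tested at 10 CPM or more in at least 1 sum and called at 2-fold. With 1 library per group no significance test was possible. The 2-fold call rule was run on simulated pairs of THP and vehicle sums with known differences. Gates, clusters, lineage steps and thinning were not simulated. All 9 factors are named; from each of the lists of relatives and of other regulators, the up to 4 genes with the largest ratio and the up to 4 with the highest level over all cells are named, and for each factor the 3 genes most like it. Some genes of the lists and markers are not reported here. The factors and lists were chosen with earlier results of these data known. Alternatives were other cell filters, gates, weights, thinning, TMM and RLE scaling (edgeR 4.0.16), pseudocounts, limits and a correction for transcript length (known for 31011 of 31053 genes). Leaving out cluster 12 or 14, taking the progenitor gate within cluster 3 and using UMIs per cell were added after the data were seen. Coordinates are from GENCODE M21 (GRCm38) and promoters from RefSeq (GRCm38.p6). Python 3.11.15, numpy 2.4.6, scipy 1.17.1, pandas 2.3.3, scanpy 1.11.5, igraph 0.11.9 and statsmodels 0.14.6 were used.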

Additional observations from a re-analysis of the deposited data

Results flagged for a closer look

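For 3 factors the difference between THP and vehicle lay in opposite directions in 2 gates. In each case a gate is 1 library against 1, so the difference between gates was not tested. Cebpd had a log2 ratio of 1.74 in macrophages and -0.20 in mature neutrophils, and the latter was 0.19 after TMM scaling. Irf8 had a log2 ratio of 0.13 in monocytes and -0.19 in macrophages, and the latter was 0.04 after TMM scaling. Maf had a log2 ratio of 0.84 in progenitors and -0.65 in macrophages, and the former was 0.02 without cluster 12.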

How the results depend on the processing

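Over all cells, where 0 factors passed 2-fold, 2 did with TMM, RLE or length correction, 1 with a pseudocount of 0.1 CPM, the same mix of gates, or without cluster 12 or 14, and 6 at 1.5-fold. In progenitors (0), 1 did with TMM, RLE, length correction or without the top 5% of cells by UMIs, and 3 at 1.5-fold. In immature neutrophils (1), 0 did with named clusters, 2 with equal weight per cell, looser gates, thinning to 2000 UMIs, a pseudocount of 0.1 CPM or without cluster 14, 3 with stricter gates or without cluster 12, and 4 at 1.5-fold. In mature neutrophils (2), 1 did with TMM or RLE and 4 at 1.5-fold. With named clusters the factors called there changed. Cebpa (log2 ratio -1.37) and Maf (-1.03) were then lower and Cebpe higher (1.17), while Cebpb (0.73) was not called. In monocytes (0), 1 did with named clusters or length correction, 2 with thinning, TMM or RLE, and 4 at 1.5-fold. In macrophages (1), 2 did with TMM, RLE or length correction and 4 at 1.5-fold. A lower limit or other scaling moves these counts by construction, and the cause of the others was not tested. The share of all genes called was computed under the main rule only. The counts of this section therefore do not show how the members compare with other genes. The count of factors past 2-fold along a lineage step in both libraries was 7 and lay between 6 and 8 under the alternatives run. The Cebpd ratio in macrophages lay between 1.64 and 1.99 under all alternatives run. Of 54 ratios of a factor, over all cells or in a gate, 41 kept 1 sign under all alternatives and 13 did not. No paired analysis was possible because each group has 1 library. Precision was limited by UMI counts in mature neutrophils, where Gfi1 had 5 UMIs in each library.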
